A study of Mus musculus with 2 samples.

Results

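The 10 genes described here encode enzymes that oxidise alcohols and aldehydes in liver: the alcohol dehydrogenases Adh1, Adh4 and Adh5 and the aldehyde dehydrogenases Aldh1a1, Aldh1b1, Aldh2, Aldh3a2, Aldh7a1, Aldh8a1 and Aldh9a1. They were selected by gene symbol, as every probe set whose platform annotation names one of these genes alone. All 10 were found, read by 16 probe sets, among 12393 genes with such a probe set. The data are 2 Affymetrix liver arrays, 1 per diet, from female mice labelled as homozygous apolipoprotein E (apoE) knockouts on a C57BL/6J background, 2 months old. The study used 12 mice, 6 per diet, and how many of them contributed RNA to each array is not given in the labels. Both diets were chow with 10% (w/w) added oil, eaten for 4 weeks. The group labelled olive oil received plain olive oil, and the group labelled maslinic acid received olive oil enriched in maslinic acid, a triterpene of olives. Apoe, the targeted gene, had a signal of 407.7 under the olive oil label and of 7630 under the other, which goes against 1 knockout label shared by both. Directions are therefore given between the arrays as labelled.

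Alcohol dehydrogenases are zinc enzymes that pass hydrogen from an alcohol to NAD+, giving an aldehyde or ketone and NADH. Aldehyde dehydrogenases then oxidise the aldehyde to an acid, again usually with NAD+. In hepatocytes this pair of steps clears ethanol by way of acetaldehyde, turns retinol into retinoic acid, and removes aldehydes that arise from lipids, amino acids and choline.

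The question was whether RNA of these enzymes differed between livers of mice fed the 2 oils. The values are signals from the MAS5 algorithm, which makes 1 linear intensity per probe set, and the ratio is the log2 of the signal on the array labelled maslinic acid over that on the array labelled olive oil. Pairs of signals are given in the order olive oil, maslinic acid. Signals under 40 were set to 40, and a gene counted as measured where its brightest probe set reached 80 on at least 1 array. With 1 array per diet there is no replicate error and no test, so every difference is a difference between 2 arrays. The pooled SD of the ratio between probe sets of 1 gene was 0.23 over 1815 genes, a technical spread within the same hybridisations. Over the 230 genes with probe sets of a mean signal of at least 1000, the range of 9 members, it was 0.15.

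All 10 genes were measured, and they differed little. The median log2 ratio was 0.07, against -0.01 over the 5911 measured genes, and the members ranged from -0.16 for Adh1 to 0.32 for Aldh1b1. Of the members, 6 were higher and 4 lower on the array labelled maslinic acid, where 47.8% of measured genes were higher and 52% lower. None was at least 1.5-fold apart, as 3.05% of measured genes were. By brightest probe set, only Aldh1b1 was at least 1.2-fold apart, 1 of 10 members beside 19% of measured genes. The split of 6 higher and 4 lower became 8 and 2 with quantile normalization and also with a loess trend on signal removed, because Aldh8a1 and Aldh9a1 changed sign.

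**Figure D1:**
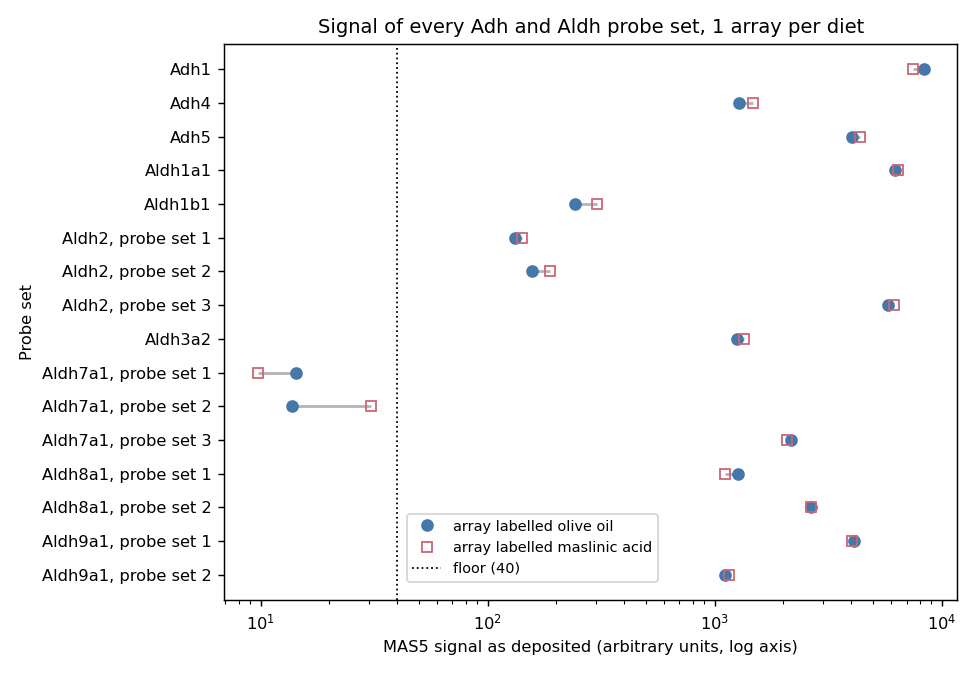
MAS5 signal (log axis, as deposited) of all 16 probe sets of the 10 genes, with filled circles for the array labelled olive oil, open squares for the array labelled maslinic acid, and the floor of 40 as a dotted line. The 2 symbols nearly coincide for most probe sets, and 2 probe sets of Aldh7a1 lie under the floor on both arrays. Probes differ in efficiency, so levels are not compared between probe sets.

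Among the alcohol dehydrogenases, 2 were higher and 1 was lower. Adh1, the class I enzyme that carries most ethanol oxidation in liver and also oxidises retinol, had signals of 8369 under the olive oil label and 7512 under the maslinic acid label, a log2 ratio of -0.16. Adh4, the class II enzyme, which acts on retinol and larger alcohols, had signals of 1280 and 1472, a log2 ratio of 0.20. Adh5, the class III enzyme, oxidises the glutathione adduct of formaldehyde and reduces S-nitrosoglutathione. It had signals of 4040 and 4362, a log2 ratio of 0.11. Each was read by 1 probe set, so none of these ratios has a second measurement. All 3 are smaller than the spread of 0.23 over all genes, but Adh4, and Adh1 narrowly, exceed the 0.15 found among bright probe sets.

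Genes of like signal give a scale for these ratios. For each member, the measured genes with a mean signal from 0.5 to 2 times its own were taken as a description. Of the 1006 genes around Adh4, 16.2% lay farther from 0 than Adh4, and of the 202 around Adh1, 24.3% did. The 202 genes around Adh1 had a median log2 ratio of -0.09, so the ratio of Adh1 lay on the side to which the bright genes leaned. Removing the loess trend on signal brought Adh1 to -0.07 and quantile normalization to -0.06. The median was also below 0 around Aldh1a1 and Aldh2, at -0.08 for each. In the same settings Aldh1a1 moved from 0.05 to 0.13 and 0.11, and Aldh2 from 0.09 to 0.16 and 0.14. Adh4 stayed between 0.196 and 0.215 under the 11 alternatives tried. Of these, a floor of 20 or 80, a changed minimum and another choice of probe sets could not move it. With a pseudocount of 16 added to the signals in place of the floor, Adh4 had a ratio of 0.20. Adh5 ranged from 0.10 to 0.17 under the 10 that kept its probe set.

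These 3 genes lie in 1 cluster on mouse chromosome 3, in the order Adh7, Adh1, Adh6a, Adh6b, Adh4 and Adh5 in the RefSeq gene table of GRCm38.p6. Adh7, the class IV enzyme of stomach and other epithelia, was not measured, at 32.6 and 44.0. Metap1, which follows Adh5 and was chosen after its value was seen, had a log2 ratio of -0.27. The sequences before the start sites of Adh1, Adh4 and Adh5 are shown as a description, and their part in the ratios was not tested. Each is the 250 bases before a RefSeq start (GRCm38.p6, plus strand, 5′ to 3′), and capitals mark matches on either strand to the TATA box letters TATAAA, the motif CCAAT, the GC box GGGCGG, the E box CACGTG or the nuclear receptor half-site AGGTCA. RefSeq lists 2 starts for Adh5.
Adh1 at chr3:138277335-138277584: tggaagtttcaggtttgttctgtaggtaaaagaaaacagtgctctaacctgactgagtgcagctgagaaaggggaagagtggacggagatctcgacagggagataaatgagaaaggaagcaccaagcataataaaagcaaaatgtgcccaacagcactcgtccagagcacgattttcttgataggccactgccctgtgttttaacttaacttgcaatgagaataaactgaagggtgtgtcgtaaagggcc
Adh4 at chr3:138415247-138415496: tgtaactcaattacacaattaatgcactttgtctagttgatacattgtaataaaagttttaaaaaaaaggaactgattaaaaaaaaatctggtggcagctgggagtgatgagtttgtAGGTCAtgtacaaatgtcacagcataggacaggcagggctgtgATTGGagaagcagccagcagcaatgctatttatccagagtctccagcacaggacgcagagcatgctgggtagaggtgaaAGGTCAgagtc
Adh5, first start, at chr3:138436950-138437199: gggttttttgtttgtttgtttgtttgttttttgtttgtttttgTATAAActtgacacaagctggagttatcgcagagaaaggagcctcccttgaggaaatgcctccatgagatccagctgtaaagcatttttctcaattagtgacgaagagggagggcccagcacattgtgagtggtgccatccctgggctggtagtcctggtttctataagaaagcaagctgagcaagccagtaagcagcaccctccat
Adh5, second start, at chr3:138442843-138443092: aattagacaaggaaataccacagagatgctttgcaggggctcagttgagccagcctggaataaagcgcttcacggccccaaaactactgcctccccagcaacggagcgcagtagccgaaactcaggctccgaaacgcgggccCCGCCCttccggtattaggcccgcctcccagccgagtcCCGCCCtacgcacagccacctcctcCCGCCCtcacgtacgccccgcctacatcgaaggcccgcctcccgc
The Adh1 window held none of the 5 motifs. The Adh4 window held AGGTCA at 133 and at 11 bases before the start and CCAAT on the other strand at 90. The first Adh5 window held TATAAA at 207 bases before its start. The second held GGGCGG on the other strand at 108, 70 and 45, with 63.6% G and C and 21 CpG. The median over all windows in the table was 52.4% G and C, and Adh1 had 44.8%. No matches overlapped in these windows.

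Promoter windows were found for 8 of the 10 members, 10 windows in all, and none for Aldh2 and Aldh7a1. TATAAA stood in 1 of the 10 windows and in 12.4% of the 32851 windows of the table. CCAAT stood in 4, beside 33.8% of all windows, and GGGCGG in 3, beside 32.7%. CACGTG stood in 1 window, that of Aldh3a2, beside 6.02%, and AGGTCA in 1, that of Adh4, beside 14.0%. A match is a string of letters and not a measured binding site.

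The aldehyde dehydrogenases of acetaldehyde were both higher on the array labelled maslinic acid. Aldh2, the mitochondrial enzyme that clears most acetaldehyde, was read by 3 probe sets. The brightest had signals of 5792 under the olive oil label and 6151 under the maslinic acid label, a log2 ratio of 0.09. The dimmer ones had signals of 132.3 and 142.4, a log2 ratio of 0.11, and of 156.9 and 188.0, a log2 ratio of 0.26. All 3 were higher on the same array, and the last is of the kind, ending in _x_at, that can read other transcripts. Aldh1b1, a second mitochondrial enzyme that accepts acetaldehyde, had signals of 242.4 and 301.9, a log2 ratio of 0.32 or 1.25-fold, larger than the spread of 0.23.

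The ratio of Aldh1b1 was the farthest from 0 among the members, and its signal was low, where ratios spread more. Of the 2835 measured genes with a signal from 0.5 to 2 times its own, 11.3% lay farther from 0. It has 1 probe set, so the ratio has no second measurement. It kept a value between 0.30 and 0.32 under the 11 alternatives. A floor of 20 or 80, a changed minimum or another choice of probe sets could not move it, since its signals lay above every floor and minimum tried. Its lowest value, 0.30, came with a pseudocount of 16 added to the signals in place of the floor.

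**Figure D2:**
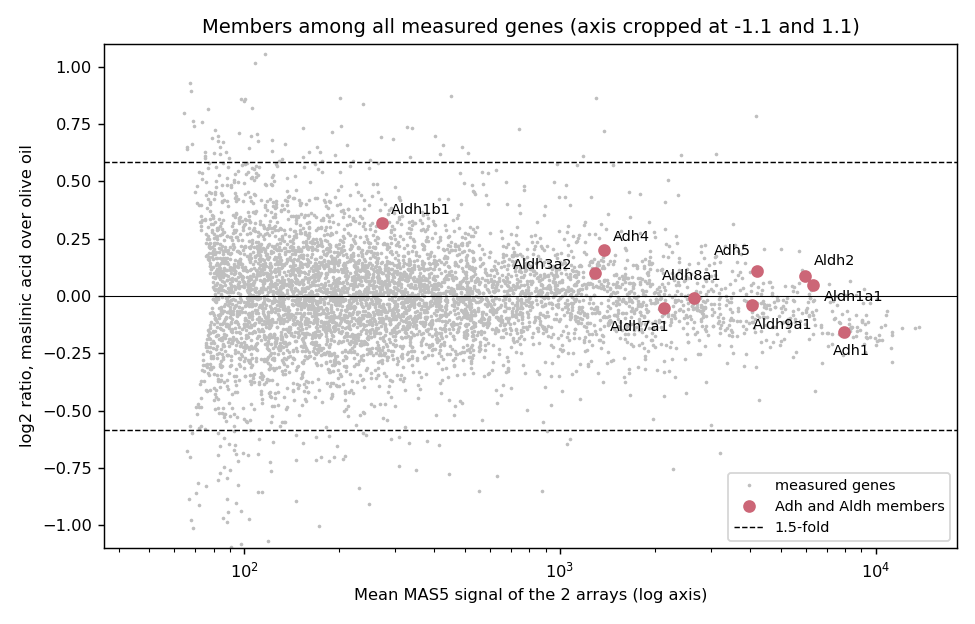
Log2 ratio of maslinic acid over olive oil against the mean signal of the 2 arrays (log axis) for every measured gene (grey) and the 10 members (red), each by its brightest probe set, with dashed lines at 1.5-fold and the axis cropped at 1.1 either way. The members lie within the grey cloud, from -0.16 for Adh1 to 0.32 for Aldh1b1, and the cloud narrows as signal rises.

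The enzymes of retinaldehyde and of fatty aldehydes were also slightly higher. Aldh1a1, the cytosolic enzyme that oxidises retinaldehyde to retinoic acid, had signals of 6222 and 6439, again with olive oil first, a log2 ratio of 0.05. It has a close paralog in mouse, Aldh1a7, which read 2943 and 3317, a log2 ratio of 0.17, and without probe sequences the reading of either gene is uncertain. Aldh3a2 encodes the membrane-bound fatty aldehyde dehydrogenase, whose loss in humans causes Sjögren-Larsson syndrome. It had signals of 1250 and 1340, a log2 ratio of 0.10, and 45.8% of genes of like signal lay farther from 0.

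The 3 remaining enzymes, which serve amino acid and carnitine metabolism, were slightly lower by their brightest probe set. Aldh7a1, or antiquitin, oxidises a semialdehyde of lysine breakdown. Its brightest probe set had signals of 2168 and 2092, a log2 ratio of -0.05. Its other probe sets had signals of 14.3 and 9.7, and of 13.8 and 30.6, all under the floor, so they give no ratio. Of the 3 probe sets of Aldh7a1, 1 therefore carries its value.

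Aldh8a1, first described as a retinal dehydrogenase and later assigned to 2-aminomuconate semialdehyde in tryptophan breakdown, had signals of 2669 and 2656, a log2 ratio of -0.01. Its second probe set had signals of 1271 and 1116, a log2 ratio of -0.19. Both had the lower signal under the maslinic acid label, by unequal amounts. Aldh9a1 oxidises trimethylaminobutyraldehyde on the way to carnitine. It had signals of 4124 and 4011, a log2 ratio of -0.04, and on its second probe set 1115 and 1152, a log2 ratio of 0.05. Its probe sets disagree in sign, so no direction can be given for Aldh9a1, and the sign of Aldh8a1 turned with quantile normalization and with the loess trend removed.

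Taken by probe set, 14 of the 16 were measured, of which 9 were higher and 5 lower on the array labelled maslinic acid. Over all 8525 measured probe sets 49.2% were higher and 50.7% lower. The 9 members with a mean signal of at least 1000 had a median log2 ratio of 0.05, with 5 higher and 4 lower. The 973 measured genes at that signal had a median of -0.04, with 39.1% higher and 60.8% lower.

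**Figure D3:**
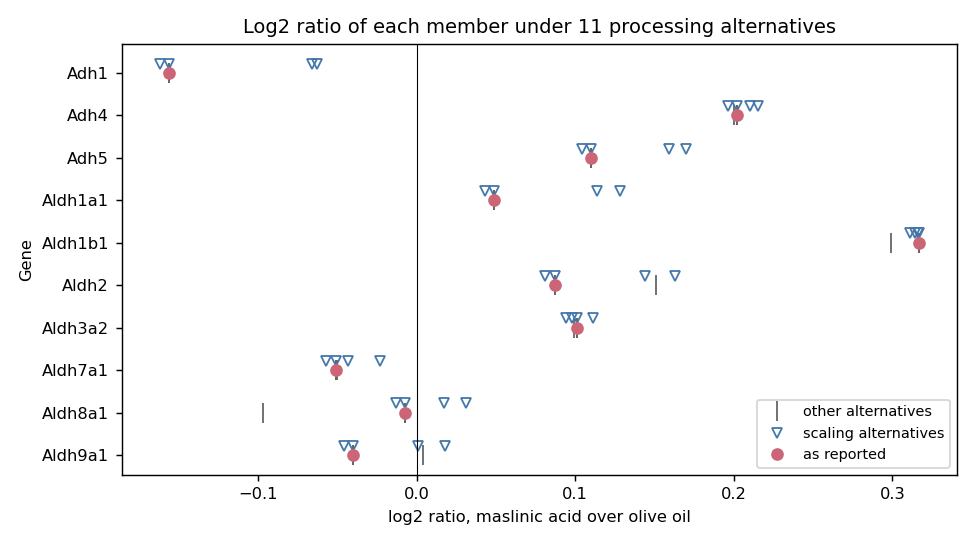
Log2 ratio of each member as reported (circle), under the 4 scaling alternatives (triangles) and under the other alternatives (ticks). Adh4, Adh5, Aldh1a1, Aldh1b1, Aldh2 and Aldh3a2 stay above 0, Adh1 and Aldh7a1 stay below 0, and Aldh8a1 and Aldh9a1 cross 0.

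Other genes of the same reactions were taken from 8 lists, and 72 of them were measured, 36 higher and 36 lower, with a median log2 ratio of 0.00. Just 1 of them was at least 1.5-fold apart. It was Tmlhe, which encodes the first enzyme of carnitine synthesis, which read 51.8 and 86.7, a log2 ratio of 0.74, and 0.12 with a floor of 80. Its other probe sets did not reach 80. They read 52.5 and 71.2, a log2 ratio of 0.44, and 38.6 and 39.9, under the floor on both arrays. Bbox1, the last enzyme of carnitine synthesis and downstream of Aldh9a1, was named after its value was seen and had a log2 ratio of -0.08.

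Of 18 further alcohol and aldehyde dehydrogenases listed, 12 were on the array by name and 6 were measured, 3 higher and 3 lower, or 4 and 2 with quantile normalization or the loess trend removed. The highest was Aldh1a7 at 0.17, and the lowest was Aldh16a1, an atypical member of the family, which read 209.8 and 170.2, a log2 ratio of -0.30. In ethanol and acetate metabolism all 4 measured genes were lower by brightest probe set, with a median of -0.16. Over all measured genes 52% were lower, and 60.8% of those with a mean signal of at least 1000. Cyp2e1, the microsomal ethanol oxidase, was the lowest at -0.29, reading 12414 and 10158, and Acss2, which activates acetate, was the highest at -0.11. The catalase gene Cat, which can also oxidise ethanol, had a ratio of -0.16 on its brightest probe set and -0.01 on its second. On their second probe sets the acetyl-CoA hydrolase gene Acot12 had a ratio of -0.02 and Acss2 of 0.04, so not every probe set had the common direction. With quantile normalization and with the loess trend removed all 4 were still lower, with medians of -0.13 and -0.12. Cyp2e1 moved to -0.16 and -0.18 in these settings.

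In retinoid metabolism 7 of 12 measured genes were higher and 5 lower. Rdh5, a retinol dehydrogenase gene, was the highest at 0.42, with signals of 153.0 and 204.3, and Bco2, which encodes a carotenoid-cleaving oxygenase, was the lowest at -0.30. In carbonyl and lipid aldehyde reduction 9 of 16 were higher and 7 lower, or 10 and 6 with quantile normalization or the loess trend removed. The ratios as deposited ran from 0.28 for Dhrs7 to -0.16 for the aldehyde oxidase gene Aox3. In formaldehyde and S-nitrosoglutathione handling, the surroundings of Adh5, 4 of 9 were higher and 5 lower, or 5 and 4 with quantile normalization. The extremes were Dmgdh, the dimethylglycine dehydrogenase gene, at 0.28, and Gclc and Gclm, the subunits of the enzyme that begins glutathione synthesis, both at -0.26. The second probe set of Gclc read -0.04. Mthfd1, a gene of one-carbon metabolism named after its values were seen, had a ratio of -0.03 on its brightest probe set, but 0.13 and 1.18 on the others. The last read 333.6 and 755.0, and it ends in _x_at.

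Choline, betaine and lysine catabolism, beside Aldh7a1 and Aldh9a1, had 5 of 9 measured genes higher and 4 lower (6 and 3 under the same scalings), with Chdh, the choline dehydrogenase gene, the lowest at -0.17. The tryptophan route, beside Aldh8a1, had 2 of 5 higher and 3 lower (3 and 2 with the loess trend removed), from 0.17 for Kmo, the kynurenine hydroxylase gene, to -0.14 for the aminotransferase gene Kyat3. Among genes that handle the NADH made by both enzyme families, 6 of 11 were higher and 5 lower. Nnt, the transhydrogenase gene, was the highest at 0.36 (0.11 on its other probe set), and the dim Ldhb was the lowest at -0.33, or -0.06 with a floor of 80. A still dimmer probe set of Ldhb, which did not reach 80, had the other sign, reading 47.6 and 65.7, a log2 ratio of 0.465. By brightest probe set, none of the genes of these lists apart from Tmlhe was at least 1.5-fold apart.

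**Figure D4:**
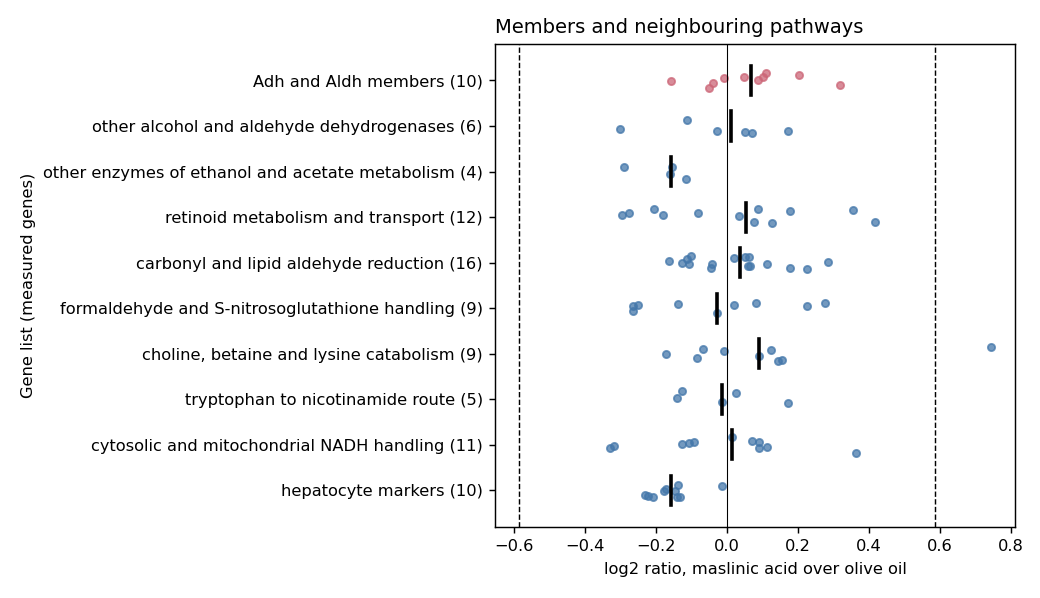
Log2 ratio of maslinic acid over olive oil for each measured gene (points) of the member list, the 8 other lists and the hepatocyte markers, with the number of measured genes in brackets, the list median as a black bar and dashed lines at 1.5-fold. The members have a median of 0.07, the ethanol and acetate genes and the hepatocyte markers have medians of -0.16, and Tmlhe is the point beyond 1.5-fold.

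Markers of liver cell types are given beside these values as a description. For the liver label, all 10 hepatocyte markers were measured, with summed signals of 91750 and 82588. Their ratios by brightest probe set ran from -0.23 to -0.01, while Hnf4a had -0.05 and 0.64 on its other measured probe sets. As deposited and by brightest probe set, these markers all had the lower signal under the maslinic acid label. Of the members, 4 were also lower (Adh1, Aldh7a1, Aldh8a1 and Aldh9a1) and 6 were higher, and the signs of Aldh8a1 and Aldh9a1 were not stable. The part of the markers in the members' values was not tested. The marker median of -0.16 became -0.05 with quantile normalization, with 7 of the 10 lower, and -0.08 with the loess trend removed, with 9 lower. These markers are bright, and of the measured genes with a mean signal of at least 1000, 60.8% were lower. How far a trend on signal accounts for the lower marker values was not tested. Even apart from such a trend, fewer hepatocytes and less RNA per hepatocyte cannot be told apart in whole liver. The pericentral list had 7 of 8 measured genes lower and summed signals of 33823 and 29105, and the periportal list 6 of 8 lower and sums of 41731 and 37519. Kupffer cell markers summed to 9173 and 9032, although Marco alone read 338.1 and 84.6. Stellate cell and matrix markers summed to 4146 and 4115, with 5 of 6 measured markers higher, a median ratio of 0.21, and the bright Dcn at -0.19. Among the 5, Reln had a ratio of only 0.005. The split was 4 higher and 2 lower with equal array medians and with quantile normalization, and 5 and 1 with the loess trend removed. Cholangiocyte markers were under the floor, 5 of 5 on both arrays, as were the erythroid genes Hba-a1, Slc4a1 and Epb42, while Alas2 read 94.1 and 150.9. Hba-a1 read 2.7 and 2.0. Probe sets that name several genes were not used, so the level of haemoglobin RNA cannot be judged from Hba-a1. Lymphocyte markers summed to 796.8 and 1388, of which Ighm gave 322.9 and 936.2, with 5 of 8 under the floor on both arrays. Endothelial markers summed to 1835 and 1648, and all 7 measured ones were lower by brightest probe set, with a median ratio of -0.12. All 7 were still lower with quantile normalization and with the loess trend removed. Adipocyte markers summed to 316.4 and 390.4 with Lep and Retn under the floor, and stomach and intestine markers to 1601 and 1493 with 5 of 8 under it. The 3 Gapdh control probe sets had ratios from 0.04 to 0.08, and the brightest Actb probe set had -0.22. The Actb control probe sets had ratios of -0.25 at the 3′ end, -0.40 in the middle and -0.51 at the 5′ end, and the part of RNA quality in the members' values was not tested.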

How the data were processed

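Liver RNA of 2 diets was measured on 1-colour Affymetrix arrays, 1 per diet. The deposited values are linear intensities, 1 per probe set, made by the authors with MAS5 according to the submitters' processing notes. Its settings are not given in the labels, and detection calls were not used here. Both arrays had a 2% trimmed mean of 200.0, so the deposited scale was kept. Of 22690 probe sets, 64 controls were left out, and 20380 name 1 gene. Gene names come from the platform annotation, which names no genome build.

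A floor of 40 was applied before log2. Each gene took its brightest probe set by mean signal, and was measured if it reached 80 on at least 1 array. The number of arrays limits the precision, and no test was run. The steps were tested on simulated data with Python 3.11.15 and pandas 2.3.3. Alternatives changed the scaling, floor, minimum and choice of probe sets. Planned protein alignments were not run because no protein sequences were used here.

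The members, lists and alternatives were chosen with earlier results of these data known. Named list genes are those at least 1.5-fold apart and the highest and lowest of each list. Others were chosen after their values were seen.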

Additional observations from a re-analysis of the deposited data

How the results depend on the processing

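With 1 array per diet, no array could be left out. No paired analysis was possible because there is a single array for either diet. Of 108 member ratios under 11 alternatives, 108 moved by less than the spread between probe sets of 1 gene, 0.23 on the log2 scale. The sign turned in 5, all of Aldh8a1 (up to 0.03) and Aldh9a1 (up to 0.02). The count of lower members, 4, became 2 with quantile normalization and 2 with the loess trend removed, and was 3 or 4 otherwise. The member median ranged from 0.06 to 0.12, and the count at least 1.5-fold apart was 0 in each alternative. Without _x_at, _s_at and _a_at probe sets, Adh5 and Aldh9a1 were not measured. Of 778 ratios of the other listed genes under the same alternatives, added after the data were seen, 773 moved by less than that spread, and Tmlhe lay under 1.5-fold in 1 of its values. The others that moved were Tmlhe (0.74 to 0.12) and Ldhb (-0.33 to -0.06) with a floor of 80, Mthfd1 (-0.03 to 0.43) with the mean of its probe sets, and Bhmt2 (0.14 to 0.51) and Nnt (0.36 to 0.11) without _x_at, _s_at and _a_at probe sets. The floor and minimum alternatives could change little for these mostly bright genes. The protein alignment and its alternative gap costs were not run.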
